A study of Homo sapiens with 12 samples.

Results

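The regions described here are stretches of RNA that were enriched by an antibody against N6-methyladenosine (m6A) in all 6 immunoprecipitated libraries of the series, but whose borders were not the same in all of them. Peaks on the same strand that overlapped by 1 base or more were joined across the 6 deposited peak lists. This gave 25666 regions, of which 5809 held a peak in all 6 lists. Of those, 3328 held an interval with the same start and end in all 6 lists and 2481 did not, and these 2481 shifting-border regions are the subject. The regions were thus selected on measured values, the start and end of each peak in the 6 lists, so covered bases, border positions and numbers of peaks are given as a description with no test. The choice used neither the group of a list nor the score of a peak.

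The cells were C4-2, an established prostate cancer cell line that grows without added androgen, carrying an empty vector (NC) or a construct that overexpresses ALKBH5 (oeALKBH5), with no other treatment in the labels. Each group had 3 replicates, each with 1 immunoprecipitated library, which gave 1 peak list, and 1 input library made without the antibody, which makes 12 libraries. Nothing in the labels tells if replicates were separate cultures, or if a construct's cells were 1 clone, and a p-value therefore measures no more than how these libraries scatter, possibly for technical reasons. Coordinates are those of the lists, in build hg19 per the submitters' processing notes, counted from 1. The genes, exons and sequences under the regions were not analysed here.

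m6A is placed on messenger RNA by a methyltransferase complex built on METTL3 and METTL14, most often in long exons and near stop codons, and ALKBH5 removes it. In the assay, RNA is broken into fragments, the methylated fragments are pulled down, and a peak is a stretch where the pulled-down reads exceed a control. A peak border is not the position of a methylated adenosine, and a long peak may hold several methylated sites. The deposited lists look clipped to fixed features, since so many borders are the same to the base in several lists, but no source used here states it and it was not tested. A border may thus be the place where enrichment ends or the end of such a feature.

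ALKBH5 stood at 64.9, 61.1 and 58.2 FPKM (fragments scaled to transcript length and library size) in the NC inputs and at 80.3, 74.3 and 72.5 FPKM in the oeALKBH5 inputs, so every oeALKBH5 library was above every NC library. An exact two-sided permutation test of these values returned p = 0.1, which is the lower limit for 3 against 3. Each of 7 luminal prostate markers, among them KLK3, KLK2 and HOXB13, was at 52.3 FPKM or more in every input library, with sums of 1989.5 to 2007 FPKM in NC and 2033 to 2237 FPKM in oeALKBH5. The 3 basal and 3 immune markers were at most at 3.34 and 1.88 FPKM, and of 3 fibroblast markers COL1A1 ranged from 2.17 to 27.6 FPKM, while DCN was listed at 0 in all 6. In bulk RNA, fewer cells of a type and less RNA per cell cannot be told apart. The NC lists held 11902, 11559 and 11619 peaks and the oeALKBH5 lists 16060, 11478 and 15052, and the read depth behind the lists is unknown. The lists of oeALKBH5 replicates 1 and 3 thus stood apart in length, and the main differences in cover and borders are given with and without them.

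The shifting-border regions covered fewer bases in the oeALKBH5 lists than in the NC lists. Their peaks covered 3508, 3523 and 3546 kb in the 3 NC lists and 3269.95, 3368 and 3202 kb in the 3 oeALKBH5 lists. Every oeALKBH5 list was below every NC list, with oeALKBH5 replicate 2, the shortest list of all, closest to the NC lists. Per region, the mean was 1421 ± 7.63 bases in NC and 1322 ± 33.6 bases in oeALKBH5 (SD over lists, n = 3 per group), a difference of -6.98%. The median region was covered over 1137, 1140 and 1159 bases in NC and 1046, 1072 and 1019 bases in oeALKBH5. In the 3328 regions with an identical interval each list covered the same 1563 kb by construction, so these regions can show no such difference. Over all peaks, in or out of these regions, the NC lists covered 7973691 to 8369256 bases and the oeALKBH5 lists 7740730 to 9260842, so the groups overlapped there. The mean width of a peak over whole lists was 703, 689.8 and 696 bases in NC and 577, 674 and 555 in oeALKBH5, with the groups apart and a difference of -13.5%. Inside the shifting-border regions the same quantity differed by -8.17%. The whole-list means come from lists of different length that hold different peaks, so whether the same peaks were narrower outside these regions was not tested.

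Lower cover in oeALKBH5 was also seen with the long lists left out of the group mean and with lists of equal length. With both long lists left out of the mean, oeALKBH5 replicate 2 against the 3 NC lists gave a difference of -4.48%. The 2481 regions and their joined ends were still those set by all 6 lists, the long ones included. With every list cut to its 11478 best-scored peaks before joining, 2255 such regions remained and the difference was -7.12%. Over the 2481 regions of all 6 lists, with 1 list at a time dropped from its group mean, the difference ran from -8.22%, without oeALKBH5 replicate 2, to -5.87%, without oeALKBH5 replicate 3.

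**Figure D1:**
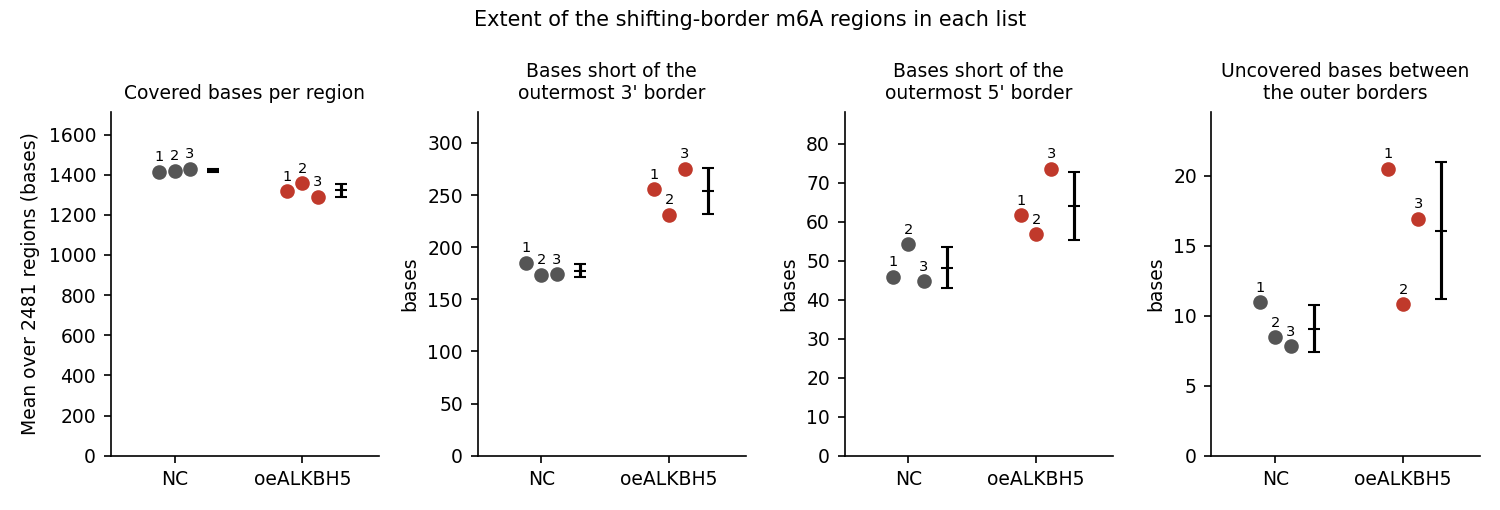
Mean over the 2481 shifting-border regions, in bases, of the covered length and of the 3 ways in which a list can fall short of the whole joined region; points are the 3 lists of each group with their replicate number, bars are the mean ± SD. The oeALKBH5 lists sit lower in covered bases (1322 against 1421) and higher in the distances from both outer borders.

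The missing bases lay mostly at the 3′ side. For each list, the distance of its outer border from the farthest border that any list reached in the same region was measured along the strand given in the list. At the 3′ side the lists ended 185, 173 and 174 bases short in NC and 256, 231 and 275 bases short in oeALKBH5, in the mean over regions. At the 5′ side they began 45.9, 54.1 and 44.7 bases late in NC and 61.6, 56.7 and 73.5 bases late in oeALKBH5. Gaps between peaks inside a region took 11.0, 8.45 and 7.81 bases in NC and 20.5, 10.8 and 16.9 bases in oeALKBH5. The groups did not overlap at either border, and they overlapped in the gaps, where oeALKBH5 replicate 2 lay below NC replicate 1.

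Of the mean difference of -99.2 bases per region, 76.4 bases lay at the 3′ border, 15.7 at the 5′ border and 7.0 in gaps. The medians over regions were smaller, 7.33 bases at the 3′ border and 0.0 at the 5′ border. By group means, the 3′ border lay farther in for oeALKBH5 in 1353 regions, farther out in 544 and level in 584. Gaps were larger in all oeALKBH5 than in all NC lists in 4 regions and smaller in 1 (0.0689% and 0.0172% of all 5809 regions). The 3′ excess stood on both strands, with 76.8 bases on the plus strand (1274 regions) and 76.1 bases on the minus strand (1207 regions), although the 3′ side is the right end of a region on one and the left end on the other. The 5′ differences were 13.7 and 17.8 bases. With both long lists left out of the mean, over the same regions and joined ends, the 3′ difference was 53.5 bases and the 5′ difference 8.49 bases.

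Outer borders were identical in all 6 lists more often at the 5′ than at the 3′ side, and whether an identical border is the end of a feature to which peaks were clipped was not tested. In 1392 regions (56.1%) the outer 5′ border was identical in all 6 lists and the 3′ border moved, in 563 (22.7%) the 3′ border was identical and the 5′ border moved, in 509 (20.5%) both moved, and in 17 both outer borders stood still while the gaps between peaks differed. Where it moved, the 3′ border ranged over a median of 388 bases across the 6 lists (quartiles 153 and 788, 1901 regions) and the 5′ border over 145 bases (quartiles 43 and 394.5, 1072 regions). Movements were seldom marginal, with a range under 10 bases in 50 of the 3′ and 71 of the 5′ borders that moved. The widest ranges were 4179 bases at a 3′ and 3469 bases at a 5′ border.

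**Figure D2:**
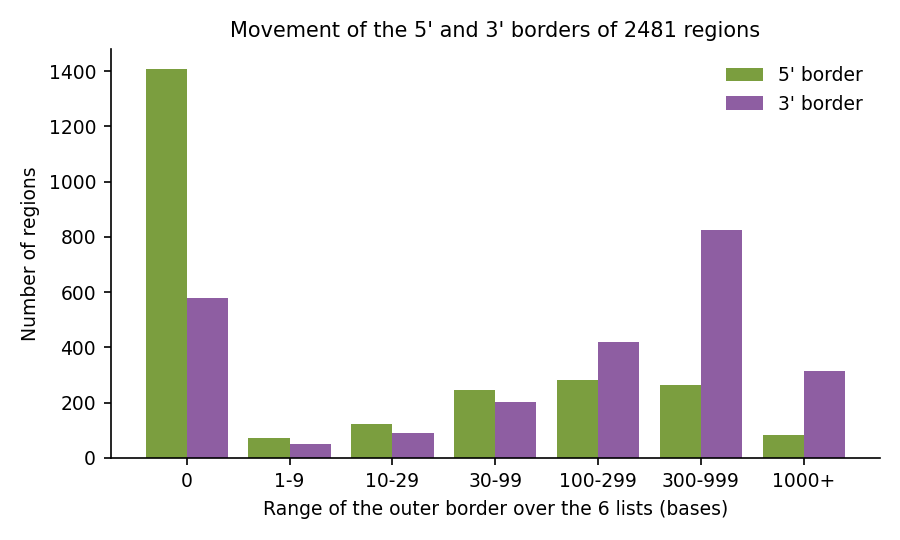
Number of regions by the range, in bases, of the outer 5′ border (green) and the outer 3′ border (purple) over the 6 lists. The 5′ border did not move in 1409 regions and the 3′ border in 580, and movements of 300 bases or more were commoner at the 3′ border (824 and 316 regions in the last 2 classes, against 264 and 84).

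The 3 classes differed in length and in the size of the group difference. Regions with a still 5′ border had a median joined length of 1500 bases, those with a still 3′ border 726 and those in which both moved 1875. Regions with a still 5′ border were covered over 1508, 1530 and 1525 bases in NC and 1395, 1447 and 1383 in oeALKBH5, a difference of -7.42%. Regions with a still 3′ border were covered over 892, 882 and 901 bases in NC and 853, 870.1 and 845 in oeALKBH5, a difference of -3.99%. Where both moved, the values were 1688, 1664 and 1708 bases in NC and 1574, 1601 and 1479.7 in oeALKBH5, a difference of -8.00%. In each class every oeALKBH5 list was below every NC list.

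Taken region by region, 1817 of 2481 had a lower mean cover in oeALKBH5, 657 a higher one and 7 the same, with a median log2 ratio of -0.06. Over all 5809 regions in the 6 lists the median was 0.0 by construction. The 3328 regions with an identical interval, the larger part, had the same cover in every list. In 291 regions (11.7%) all 3 oeALKBH5 lists covered fewer bases than all 3 NC lists, and in 33 (1.33%) they covered more. Over all 5809 regions the shares were 5.01% and 0.568%, but the identical intervals among these could not count in either direction, so nothing is read from the size of the shares.

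Among the 291 regions with lower cover, the 3′ border alone lay farther in for all oeALKBH5 lists in 206, the 5′ border alone in 51, both in 2 and neither in 32. Counted over every shifting-border region, the 3′ border lay farther in for all oeALKBH5 lists in 216 and farther out in 27 (3.72% and 0.465% of all 5809 regions), and the 5′ border in 69 and 16 (1.19% and 0.275%). The median shortfall among the 291 was 327 bases (quartiles 161 and 604.5), the largest 2302, and the median oeALKBH5 cover was 76.4% of that in NC. In 97 of them the shortfall was 500 bases or more, and in 21 the oeALKBH5 mean was under 50% of the NC mean. Among the 33 with higher cover, the median excess was 272 bases and 14 had an excess of 500 bases or more.

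**Figure D3:**
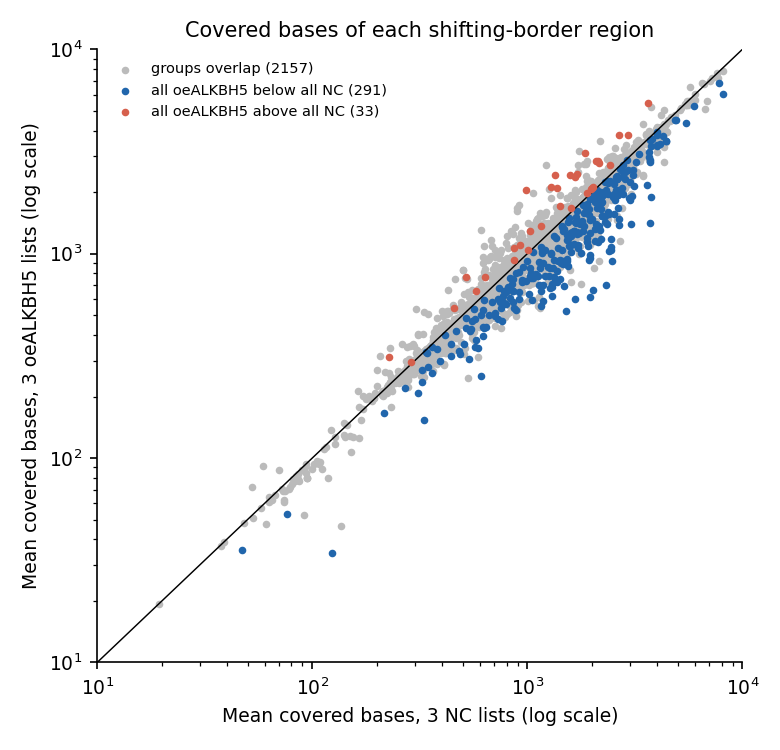
Mean covered bases of each region in the 3 NC lists (horizontal, log scale) against the 3 oeALKBH5 lists (vertical, log scale); each point is 1 of 2481 regions and the line marks equal cover. The 291 regions with all oeALKBH5 lists below all NC lists (blue) lie under the line, and the 33 in the other direction (red) lie above it.

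Full cover of the joined region was also commoner in NC. NC lists covered 967, 1018 and 1011 of the 2481 regions from end to end, and oeALKBH5 lists 629, 771 and 538. In 422 regions all 3 NC lists did so, against 94 for the 3 oeALKBH5 lists. In 27 regions every NC list and no oeALKBH5 list covered the whole region, and in 2 regions the reverse held (0.465% and 0.0344% of all 5809 regions, of which the identical intervals cannot count). The share of regions with identical peaks was lowest between oeALKBH5 replicate 3, a long list, and the other oeALKBH5 lists. The pair of oeALKBH5 replicates 1 and 2 lay within the range of the pairs between groups. Between 2 NC lists the peaks of 569 to 583 regions (22.9% to 23.5%) were identical, between 2 oeALKBH5 lists those of 226 to 357 (9.11% to 14.4%) and between the groups those of 317 to 483 (12.8% to 19.5%). By the mean distance between 3′ borders the order was another, with 172 to 176 bases between NC lists, 176 to 187 between oeALKBH5 lists and 181 to 207 between the groups.

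The 5 regions with the largest shortfalls in oeALKBH5 show single cases, with the covered bases of NC replicates 1 to 3 before those of oeALKBH5 replicates 1 to 3. At chr5:134190588-134194601 on the plus strand, 3569, 3552 and 4014 bases were covered in NC and 1372, 1348 and 1510 in oeALKBH5, a difference of -2302 bases. Its 5′ border was the same in all 6 lists, and its 3′ border lay 445, 462 and 0 bases from the outermost 3′ end in NC and 2642, 2666 and 2504 bases from it in oeALKBH5. The 3 oeALKBH5 borders thus fell within a stretch far shorter than the distance between the groups. At chr1:16254586-16262761, also on the plus strand, NC covered 8176, 8027 and 8176 bases and oeALKBH5 6022, 6056 and 6004, again from a common 5′ border. The oeALKBH5 peaks ended 2154, 2120 and 2172 bases short of the 3′ end of the region.

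At chr19:4045216-4048242 on the minus strand, the 3 NC lists held the same interval of 3027 bases, and oeALKBH5 covered 2695, 755 and 737 bases. In oeALKBH5 replicate 1 the cover came in 2 peaks of 2057 and 638 bases with a gap between them, and in the other two the 3′ peak was missing, with ends 2272 and 2290 bases short. The best peak of each oeALKBH5 list there scored 3100, against 1692.38, 1898.31 and 2813.33 in NC. Scores are compared between lists only as ranks, and the score-rank difference of this region, tested as described further on, did not pass (limma adjusted p = 0.443). At chr6:106967006-106969328 on the plus strand, the NC lists again shared 1 interval, of 2323 bases, against 742, 903 and 460 bases in oeALKBH5. Replicate 2 held there a second, separate peak with a score of 87.22, without which the mean difference went from -1621 to -1782 bases. At chr19:56124959-56129024 on the plus strand, NC covered 3866, 3883 and 3560 bases and oeALKBH5 3551, 927 and 1218. The top oeALKBH5 value there was within 9 bases of the lowest NC value, so this shortfall rests on oeALKBH5 replicates 2 and 3.

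**Figure D4:**
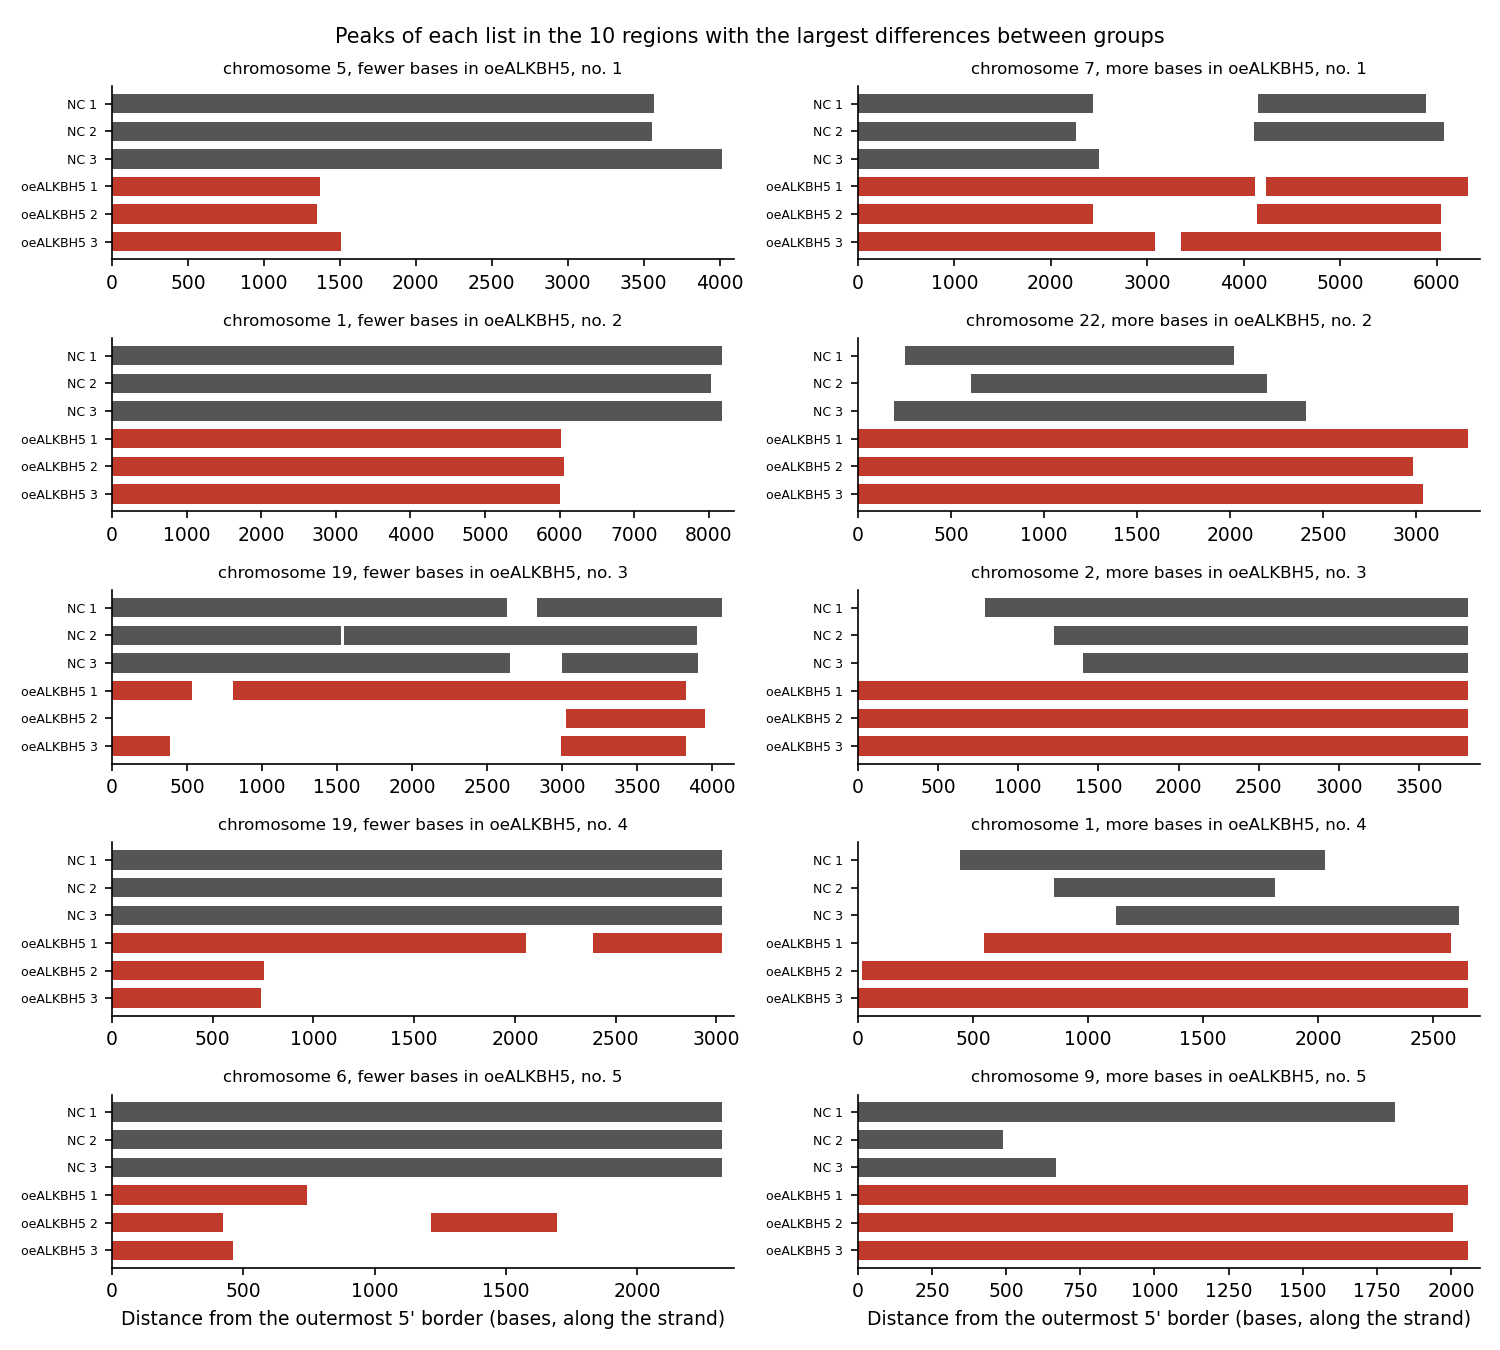
Peaks of the 6 lists (bars, NC grey, oeALKBH5 red) in the 5 regions with the largest shortfalls (left) and the 5 with the largest excesses (right) of covered bases among regions whose groups do not overlap, against the distance in bases from the outermost 5′ border along the strand. In 4 of the 5 shortfalls the first peak of every list starts at the same 5′ border, and the oeALKBH5 cover ends earlier or has a gap.

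The 5 largest excesses in oeALKBH5 were less uniform in which border moved. At chr2:227659705-227663506 on the minus strand, all 3 oeALKBH5 lists covered the whole 3802 bases, while NC covered 3008, 2582 and 2401, starting 794, 1220 and 1401 bases later at the 5′ side with a common 3′ border. At chr22:38119192-38122466 on the plus strand, NC covered 1771, 1590 and 2214 bases and oeALKBH5 3275, 2981 and 3033, with the oeALKBH5 peaks longer at both ends. At chr9:32443797-32445852 on the minus strand, NC covered 1810, 489 and 669 bases and oeALKBH5 2056, 2007 and 2056, from a common 5′ border. NC replicate 1 was closer to the oeALKBH5 lists there than to the other NC lists. The scores at this region were 226.39, 57.56 and 79.47 in NC and 3100, 2794.08 and 1405.07 in oeALKBH5, but its score-rank difference, tested as described further on, did not pass (limma adjusted p = 0.182).

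At chr7:4801815-4808133 on the plus strand, 4174, 4226 and 2503 bases were covered in NC and 6207, 4344 and 5774 in oeALKBH5. There oeALKBH5 replicate 2 lay near NC replicates 1 and 2. The size of this excess thus rests mostly on the long lists, oeALKBH5 replicates 1 and 3, and on the low NC replicate 3. The gap between the 2 peaks was narrower in oeALKBH5 replicates 1 and 3 than in the lists with 2 peaks otherwise, and the second peak was missing in NC replicate 3. At chr1:3404506-3407153 on the minus strand, NC covered 1587, 959 and 1492 bases and oeALKBH5 2030.0, 2630.0 and 2648. The borders of the 3 NC lists there differed from each other at both ends.

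Differences among lists were large within groups too. Across the 6 lists, the smallest cover of a region was in the median 71.7% of its largest, it was under 50% in 531 regions (21.4%) and at least 90% in 496 (20.0%). The SD of covered bases within NC had a median of 87.8 bases and that within oeALKBH5 108 bases, and 1477 regions had the larger SD in oeALKBH5 against 996 in NC. The largest SD over the 6 lists, 1655 bases, was at chr20:32232153-32237842, with 2122, 1839 and 5690 bases in NC and 1752, 4066 and 1668 in oeALKBH5. There, NC replicate 3 covered the whole region, and no order of the groups could be read.

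At chr4:1209375-1216388 a single list stood apart, oeALKBH5 replicate 1, with 3071 bases against 6624 to 7013 in the other five. At chr11:108378133-108385602 it was oeALKBH5 replicate 3, with 3291 bases against 5684 to 7470. At the other end, 3 regions differed by a single base in a single list. They were chr15:43655947-43656685, with 738 in place of 739 bases in oeALKBH5 replicate 1, and chr15:44876012-44876756 and chr16:14813947-14814091, with 744 in place of 745 and 144 in place of 145 bases in oeALKBH5 replicate 3.

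Such near misses mark the edge of the rule. In 1288 regions (51.9%) the 6 lists gave 6 different sets of intervals, and in 387 (15.6%) they gave 2. Among the latter were 373 regions in which 5 lists agreed and 1 departed, NC replicates 1, 2 and 3 in 26, 27 and 28 and oeALKBH5 replicates 1, 2 and 3 in 81, 58 and 153. The departing list covered fewer bases in 24, 26 and 25 of these regions in NC and in 79, 57 and 153 in oeALKBH5. No region had 1 set of intervals in the 3 NC lists and another in the 3 oeALKBH5 lists. Just outside the rule, 2106 regions were found in exactly 5 lists, 1085 of them with an interval identical in those 5.

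Splitting of a region into several peaks was rare. The regions held 2550, 2548 and 2541 peaks in NC and 2602, 2549 and 2589 in oeALKBH5, so the groups overlapped, and 2240 of 2481 regions held 1 peak in every list. Regions with 2 or more peaks numbered 67, 66 and 60 in NC and 115, 67 and 102 in oeALKBH5, again with replicate 2 at the NC level. In 108 regions at least 1 oeALKBH5 list and no NC list was split, and in 42 the reverse. Peak numbers were higher in all oeALKBH5 than in all NC lists in 1 region and lower in 1 region (0.0172% of all 5809 regions in each direction).

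The regions with most peaks were long and were cut in different places by different lists. At chr8:77763122-77768544, 3, 1 and 2 peaks were called in NC and 2, 3 and 3 in oeALKBH5, 14 in all. At chr1:152185751-152191451 there were 2, 2 and 1 peaks in NC and 1, 2 and 4 in oeALKBH5. Likewise, chr9:32629455-32633778 and chr1:167095024-167098204 held 13 peaks each over the 6 lists. At chr1:231487050-231490046 each list held 2 peaks, and the covered bases were 2004, 2643 and 1930.0 in NC and 1879, 1565 and 1516 in oeALKBH5.

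The score of a peak is the authors' own and was used only to rank peaks within a list. The best-scored peak of the median region stood at the 71.8, 70.3 and 69.8 percentile of its list in NC and at 79.2, 69.8 and 76.6 in oeALKBH5. The higher percentiles belong to the 2 long lists, and percentiles from lists of different length show no change. The percentile was higher in all oeALKBH5 than in all NC lists in 423 regions (17.0%) and lower in 73 (2.94%), close to the 17.6% and 3.49% over all 5809 regions. The regions with an identical interval had median percentiles of 73.3, 73.1 and 74.4 in NC and 79.4, 72.0 and 78.3 in oeALKBH5.

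**Figure D5:**
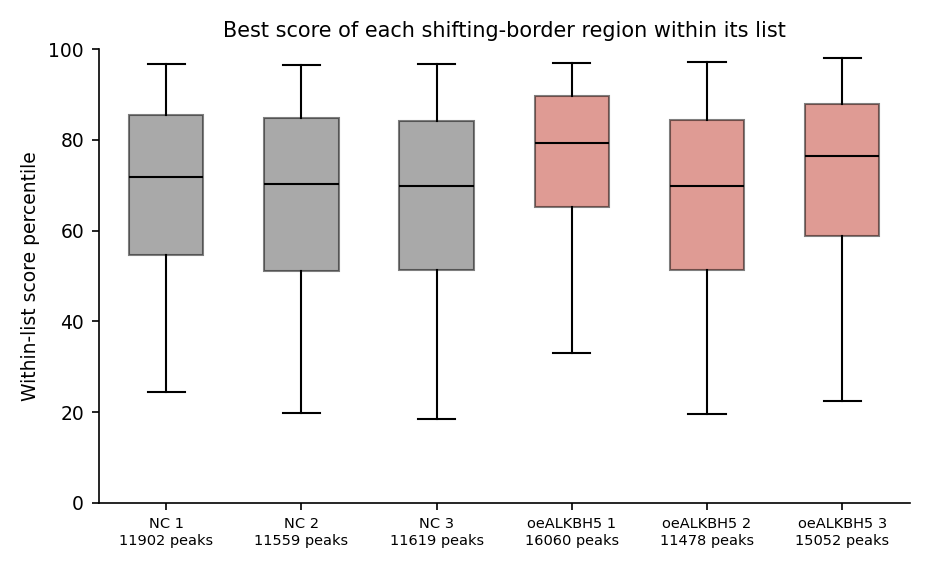
Percentile, within its own list, of the best-scored peak of each of the 2481 regions (boxes are quartiles with the median, whiskers the 5th and 95th percentiles; NC grey, oeALKBH5 red, number of peaks in the list below). The medians of the 2 lists over 15000 peaks, 79.2 and 76.6, lie above the other four.

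To compare scores over lists of equal length, regions were ranked within each list among the 5809 that all lists share, the ranks were turned into normal scores, and limma was fitted to all of them with Benjamini-Hochberg adjustment. The rule had not used these scores. The fit called 1 shifting-border region higher and 0 lower in oeALKBH5 (0.0172% and 0.0% of all 5809 regions), and at an unadjusted p under 0.05 it gave 153 higher and 102 lower, which is 6.17% and 4.11% of the shifting-border regions against 4.41% and 4.27% of all 5809. The called region, chr10:91162038-91164331 on the plus strand, stood at the 39.6, 40.0 and 28.4 percentile in the NC lists and at 97.0, 97.2 and 98.1 in the oeALKBH5 lists. Its scores were 148.7, 152.56 and 104.26 in NC and 3100 in each oeALKBH5 list, a value at which scores of the lists pile up, so the ranks at the top are tied. The difference was 2.86 normal-score units (SE 0.20, limma adjusted p = 0.0124).

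This region also covered more bases in oeALKBH5, 2294, 2217 and 1870.0 against 743, 1514 and 1609 in NC. Its call did not hold when any 1 list was left out, with limma adjusted p from 0.0870 to 0.158, although the difference kept its size, from 2.75 to 2.94. Over the 2481 regions, the score-rank difference had a median of 0.03, with 1317 regions higher and 1164 lower. Against the log2 ratio of covered bases it gave r = -0.02 and rho = -0.04 across these regions, which share their 6 lists. Of the 291 regions with lower cover, 159 had a higher and 132 a lower mean score rank in oeALKBH5.

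The 5 regions that ranked highest had scores of 3100 or more in each list, and their borders moved nonetheless. At chr1:46072154-46074697 NC replicate 1 held 1 peak of 2544 bases and each of the other five lists 2 peaks, with 2287 and 1776 covered bases in the other NC lists and 2023, 1810.0 and 2140.0 in oeALKBH5. At chr16:29912147-29913241 the cover was 877, 792 and 1095 bases in NC and 1095, 594 and 983 in oeALKBH5, and at chr5:80599862-80600960 it was 1007, 1044 and 1099 against 941, 1009 and 979. In the remaining ones, chrX:75397451-75398110 and chr13:107219921-107220514, the 6 lists differed by at most 69 and 29 bases.

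The lower cover was seen at each level of score and length. With the regions split into 4 classes of equal size by mean percentile, the difference in covered bases was -8.81% in the lowest class and -6.52%, -6.41% and -6.82% in the next 3. All 3 oeALKBH5 lists lay below the NC mean in each class. For oeALKBH5 replicate 2 alone, without the long lists, the differences were -6.70%, -3.24%, -3.73% and -4.85% in the same order. The classes of length were not measured without the long lists. By length of the joined region, the difference was -5.38% for regions up to 792 bases, -6.07% up to 1403, -8.49% up to 2241 and -6.71% above, and the share with all oeALKBH5 lists below all NC lists was 7.41%, 8.71%, 15.3% and 15.5% from the shortest to the longest class. The share with all oeALKBH5 lists above all NC lists was 0.644%, 1.13%, 1.13% and 2.42%. Over all 5809 regions, not split by length, the shares were 5.01% and 0.568%. Joined length and separation of the groups come from the same borders, so nothing is read from the larger shares among long regions. The still 5′ border was commoner among high-scored regions, with 44.0%, 50.8%, 61.6% and 68.1% of regions from the lowest to the highest class of percentile. These classes also differed in length, with median joined lengths of 962, 1348, 1668 and 1674 bases. By class of length, the 5′ border was identical in all lists in 44.3%, 60.6%, 59.8% and 62.4%. Whether score or length goes with the still border was not tested.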

How the data were processed

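Peak lists of the 6 immunoprecipitated libraries and a gene table of the 6 inputs were used. The table holds FPKM as deposited by the authors, a unit taken from the tools named and the values. Each peak carries a score as deposited by the authors, with a minimum of 50, and names of the form MACS writes. The caller's version, options and control, and any later trimming of the lists, are not given in the sources used here, and peak numbers up to 175819 against at most 16060 peaks in a list show that the lists hold part of what was numbered. Named in the submitters' processing notes, with no role given, are HISAT2 2.0.4, cutadapt 1.9.3, Cufflinks, Cuffdiff and the build hg19.

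Samples were grouped by their titles. Peaks were joined on the same strand with an overlap of 1 base, and the covered bases, outer borders, number of peaks and best score per region and list were computed with Python 3.11.15, pandas 2.3.3, numpy 2.4.6 and scipy 1.17.1. A percentile is the share of a list's peaks with the same or a lower score, ties averaged. Score ranks were fitted with limma 3.58.1 in R 4.3.3, two-sided, Benjamini-Hochberg over 5809 regions, threshold 0.05. The join was checked on hand-made peaks. The limma fit was also run on simulated scores, which lacked the ties at 3100 and so do not show how the fit handles tied ranks. Alternatives changed the overlap, the score and width minimum, the lists, the score scale, the variance model and the replicate block.

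Regions named were the 5 with the largest gain and loss of cover among those with separate groups, up to 5 called by score rank in each direction, the 5 with most peaks, the 5 of highest percentile, and the 3 of largest and smallest spread. The regions, lists and rules were chosen with earlier results of these data known. The PECAM1 marker was not matched in the table, and some luminal markers of the list are not reported here. What the genome holds under the peaks was not analysed here.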

Additional observations from a re-analysis of the deposited data

How the results depend on the processing

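With 1 list left out at a time, the rule gave 2501 to 2641 regions, which were counted but not measured further. The differences were taken over the 2481 regions of all 6 lists, with joined ends set by all 6, and the list was dropped only from its group. So taken, the difference in covered bases ranged from -8.22% to -5.87% and the 3′ difference from 65.9 to 87.9 bases. The 5′ difference ranged from 10.9 to 19.3 bases and that in summed peaks from 22.7 to 49.2. Regions without overlap between groups then numbered 400 to 548 lower (461 without oeALKBH5 replicate 1, 548 without replicate 2, 448 without replicate 3). With each of the 6 lists left out, 71 to 86 were higher in oeALKBH5, where fewer lists must be separate. Identical intervals cannot count in either direction. The numbers over all 5809 regions were thus the same, and nothing is read from their size. With both long lists left out, chosen after seeing the data, the values were -4.48%, 53.5 and 8.49 bases, 814 lower and 276 higher. Cutting lists to the shortest, also chosen after seeing the data, changed the difference in summed peaks from 33.7 to 13.0, and using peaks scoring at least 100 changed it to 15.7, and the cause was not tested. Regions called higher by score rank numbered 0 in the 6 fits that left out 1 list, from 0 to 0, and 0 with the replicate block, but 4 with list medians set equal and 2 from peaks scoring at least 100; 0 were called lower in all 16 fits run. The labels do not tell if the replicate numbers pair the lists. Deviations of same-numbered lists correlated at 0.01 in score rank for each pair and at -0.03 in cover, which cannot show if the lists were paired. With 1 list per number in each group, the block leaves the difference in covered bases at -6.98% by construction. Of 265 alternatives for the cover of 27 named regions, 22 had another sign, none by more than the spread between lists. A change to or from a difference of 0 counted among these, as at chr13:107219921-107220514, so not all were reversals. Under the score minimum the difference in cover went from -160.0 to -538 bases at chr1:167095024-167098204 and from -1246 to -405 at chr4:1209375-1216388, where it was 3.5 without oeALKBH5 replicate 1. Read depth behind the lists is unknown and limits the precision of every border.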

Other observations

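Shifting-border regions made up 42.7% of the regions found in all 6 lists, and from 37.3% to 51.6% on the 20 chromosomes with at least 50 of them. On each of these 20 chromosomes the summed cover was lower in the mean of the oeALKBH5 lists, by a difference of -1.93% to -10.8%. The chromosomes were not measured without the long lists. The joined regions were long, with a median of 1403 bases (quartiles 792 and 2241) against 205 bases (quartiles 132 and 536) for those with an identical interval. The share on the plus strand was 51.4% and 51.1%. Together they held 21.4%, 22.0% and 21.9% of the peaks of the NC lists and 16.2%, 22.2% and 17.2% of those of the oeALKBH5 lists.

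The list with the fewest covered bases, where a single list was lowest, was an NC list in 196, 220 and 192 regions and an oeALKBH5 list in 598, 377 and 804 regions, for replicates 1, 2 and 3. A single highest list was NC in 297, 341 and 328 regions and oeALKBH5 in 168, 206 and 151.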
